A study of Mus musculus with 2 samples.

Results

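The 4 genes of the calcium/calmodulin-dependent protein kinase II family, Camk2a, Camk2b, Camk2d and Camk2g, were taken by gene name from long-read RNA-seq of mouse gastrocnemius, a calf muscle made mostly of fast-twitch fibres. They were 4 of 15631 annotated genes with at least 1 read, and they held 107 transcript models in replicate 1 and 81 in replicate 2. Both libraries came from 2 µg of total RNA of males of the hybrid strain B6CASTF1/J (F1), 10 days old. The labels number the 2 sources as separate males, and they name no treatment, other genotype or control. The series therefore held 1 group of 2 replicates, and its only comparison was between those 2 libraries.

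CaM kinase II turns a calcium signal into phosphorylation. Calcium-loaded calmodulin binds the regulatory segment and releases the kinase domain, and subunits then phosphorylate each other, so that activity can outlast the signal. Each subunit has a kinase domain, a regulatory segment, a linker of variable length and an association domain (the hub) through which subunits from any of the genes join into a ring. In skeletal muscle the kinase is known to act on calcium release and uptake at the sarcoplasmic reticulum and on gene regulators such as class II histone deacetylases. Camk2a is best known from neurons, but in muscle an inner promoter of the gene gives alpha-KAP, a short protein with a membrane anchor and the hub and no kinase domain, which targets kinase subunits to membranes.

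Most differences between the splice forms lie in the linker. The exons below are shown because their use divided the reads of a gene into forms, or, for the Camk2d exon of 33 nt, because it is the counterpart of a Camk2g exon. They were read from GENCODE M21 transcripts (mm10) and are written 5′ to 3′ along the coding strand. Capitals mark in-frame proline codons (CCN), except in the exons of 33 nt, where they mark the leading run of codons for the basic residues lysine and arginine.
Camk2b 114 nt, chr11:5978399-5978512, minus strand: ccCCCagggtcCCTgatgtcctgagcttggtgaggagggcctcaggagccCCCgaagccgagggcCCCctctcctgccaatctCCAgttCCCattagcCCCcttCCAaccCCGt
Camk2b first 129 nt, chr11:5977812-5977940, minus strand: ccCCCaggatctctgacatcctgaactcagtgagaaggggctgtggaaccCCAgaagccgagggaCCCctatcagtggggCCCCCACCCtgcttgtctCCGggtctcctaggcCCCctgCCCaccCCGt
Camk2d 60 nt, chr3:126805857-126805916, plus strand: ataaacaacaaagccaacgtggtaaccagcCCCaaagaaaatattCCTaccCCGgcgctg
Camk2d 42 nt, chr3:126808208-126808249, plus strand: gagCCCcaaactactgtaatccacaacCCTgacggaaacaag
Camk2d 33 nt, chr3:126802937-126802969, plus strand: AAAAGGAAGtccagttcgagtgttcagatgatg
Camk2g 33 nt, chr14:20747819-20747851, minus strand: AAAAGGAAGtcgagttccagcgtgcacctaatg
Camk2g 69 nt, chr14:20745792-20745860, minus strand: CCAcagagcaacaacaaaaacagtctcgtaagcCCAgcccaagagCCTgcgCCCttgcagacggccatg

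Camk2b has 3 long linker exons, of 114, 129 and 129 nt, which follow each other and form its proline-rich insert. The exon of 114 nt held 9 proline codons among 37 whole codons (24.3%) and the first exon of 129 nt 10 among 42 (23.8%), against 4.61% over the coding sequence of Camk2b-209, an annotated transcript that lacks all 3. The Camk2g and Camk2d exons of 33 nt matched at 26 of 33 positions (78.8%). In delta-B, the Camk2d form that holds it, this basic exon is known as a nuclear localization signal.

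Replicate 1 held 1145490 mouse reads and replicate 2 held 941841, so 1 read was worth 0.873 and 1.06 CPM (reads scaled to a library of 1000000 mouse reads). A count of 0 allowed up to 2.62 and 3.19 CPM, from a limit of 3 reads. Each read stands for 1 cDNA molecule, so CPM was compared between genes without division by length. The library ratio varied with transcript length, as given below, and the part of length in comparisons between genes was not tested. All intervals are exact Clopper-Pearson 95% intervals, and they cover counting error only. The label of the tissue was met by its markers: 11 fast-fibre genes summed to 160186 and 128469 CPM and 7 slow-fibre genes to 1562 and 1753 CPM in replicates 1 and 2. Heart markers summed to 5.24 and 0 CPM, and 4 of the 5 were at 0 in both libraries. Fibroblast markers summed to 18609.5 and 10926.5 CPM, Schwann cell markers to 1701 and 1300 CPM, and endothelial markers to 127 and 81.8 CPM. In whole muscle, fewer cells of a type and less RNA per cell cannot be told apart.

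Camk2b had the most reads of the family in both libraries, followed by Camk2d, Camk2g and Camk2a. The family held 525 reads in replicate 1 and 341 in replicate 2, or 458 and 362 CPM. Camk2b, which encodes the beta subunit (chromosome 11, 5969644 to 6066362, minus strand), had 258 and 146 reads, or 225 and 155 CPM (190.1 ± 49.6, SD, n = 2). Camk2d, the delta subunit (chromosome 3, 126596302 to 126846326, plus strand), had 139 and 118 reads, or 121 and 125 CPM (123 ± 2.79). Camk2g, the gamma subunit (chromosome 14, 20734875 to 20794088, minus strand), had 97 and 71 reads, or 84.7 and 75.4 CPM (80.0 ± 6.57). Camk2a, the gene of the alpha subunit and alpha-KAP (chromosome 18, 60925618 to 60988152, plus strand), had 31 and 6 reads, or 27.1 and 6.37 CPM (16.7 ± 14.6). The values of neighbouring genes in this order did not overlap between libraries. Gm15551 lies antisense within the Camk2d locus, and whether the counting used strand is not stated in the labels or headers.

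As a share of family reads, Camk2b stood at 49.1% (44.8 to 53.5) in the first library and 42.8% (37.5 to 48.3) in the second. Camk2d held 26.5% (22.7 to 30.5) and 34.6% (29.6 to 39.9), Camk2g 18.5% (15.2 to 22.1) and 20.8% (16.6 to 25.5), and Camk2a 5.90% (4.05 to 8.28) and 1.76% (0.648 to 3.79). The order of the first 2 genes depended on which reads were counted. Among reads that contain the first internal kinase exon, a count added after the data were seen, Camk2b held 41.5% and 33.1%, Camk2d 34.2% and 41.3%, Camk2g 24.3% and 25.6%, and Camk2a 0% in both. Camk2d so led Camk2b in replicate 2, but the intervals overlapped (Camk2b 27.3 to 39.2, Camk2d 35.2 to 47.7). They also overlapped in replicate 1 (Camk2b 36.2 to 46.9, Camk2d 29.2 to 39.5). Leaving out reads of the genomic class and of incomplete chains gave Camk2b 41.4% and 32.8% and Camk2d 32.8% and 41.3%.

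The class of the reads differed between the genes. A model was annotated where its introns matched a GENCODE M21 transcript in full, incomplete where TALON gave it the class of incomplete splice matches, and genomic where TALON gave the class of that name, nearly all of it unspliced here. Genomic reads made up 21.7% and 17.8% of Camk2b reads in replicates 1 and 2, 58.1% and 66.7% of Camk2a reads, 8.25% and 5.63% of Camk2g reads, and 1.44% and 1.69% of Camk2d reads. Every genomic model of the 4 genes lay inside an annotated last exon, and the Camk2a, Camk2b and Camk2d ones overlapped no coding sequence. Some incomplete chains held linkers that no M21 transcript has. Incomplete chains held 20.5% and 24.0% of Camk2b reads and at most 13.7% of the reads of Camk2a, Camk2d or Camk2g. New combinations of known splice sites were the largest class of Camk2d, with 43.2% and 50% of its reads.

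**Figure D1:**
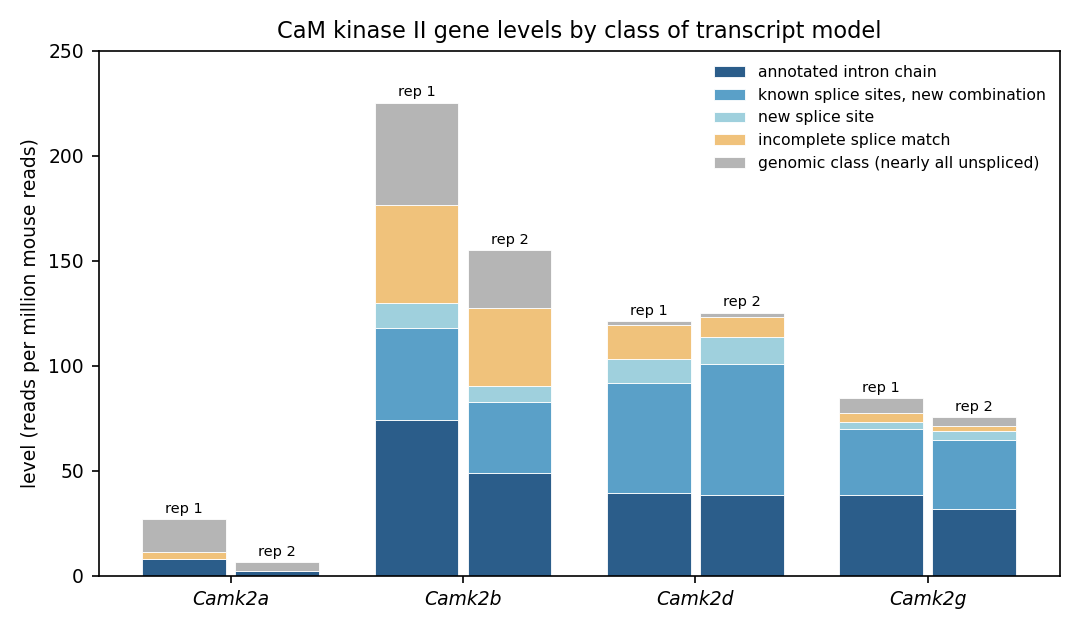
Level of each CaM kinase II gene in each library, in CPM, split by the class of the transcript model. Camk2b stood highest at 225 and 155 CPM with a large genomic and incomplete part, and Camk2a lowest at 27.1 and 6.37 CPM.

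Between the libraries, 1 of the 4 genes was called (at least 2-fold apart, with adjusted p below 0.05), against 2.75% of the 7516 genes tested (1.92% lower in replicate 2 and 0.838% higher). Camk2a was 4.25-fold higher in replicate 1, with a log2 ratio of replicate 2 to replicate 1 of -2.09 and an adjusted p of 0.00704 by the exact conditional binomial test with Benjamini-Hochberg adjustment. This rested on 31 against 6 reads, of which 18 and 4 were genomic, and with that class left out the gene fell under the minimum of 20 reads. Camk2b had a log2 ratio of -0.54 and an adjusted p of 0.00606 by the same exact test, with a difference under 2-fold. The adjusted p of Camk2b was 0.0514 without genomic reads and 0.0967 over annotated models alone. Camk2g had a log2 ratio of -0.17 (exact test, adjusted p = 0.795) and Camk2d of 0.05 (exact test, adjusted p = 0.968). The test compares these 2 libraries and not conditions, and the p-values measure only counting error.

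Library differences moved with transcript length. Tested genes whose models averaged under 1000 nt had a median log2 ratio of 0.33 (648 genes), and those of 4000 nt or more had -0.37 (1209 genes). The 1603 genes between 3000 and 4000 nt, where Camk2b, Camk2d and Camk2g lie, had a median of -0.17. The 2116 genes between 2000 and 3000 nt had a median of 0.00. Camk2a fell there by its mean model length of 2639 nt, but its bin is uncertain. That mean mixes an unspliced model of 3290 nt with Camk2a-204, which has the ends of its annotation. Incomplete Camk2a chains had a much longer last exon than Camk2a-204, so spliced Camk2a reads may belong in a longer bin. The part of length in the Camk2b and Camk2a ratios was not tested. Neuronal markers also had reads in replicate 1 alone: they summed to 8.73 and 0 CPM, of which Slc17a7, a vesicular glutamate transporter, gave 7 and 0 reads, while Snap25, Syt1, Rbfox3, Gad1 and Chat were at 0 in both libraries. Their part in the Camk2a ratio was not tested.

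**Figure D2:**
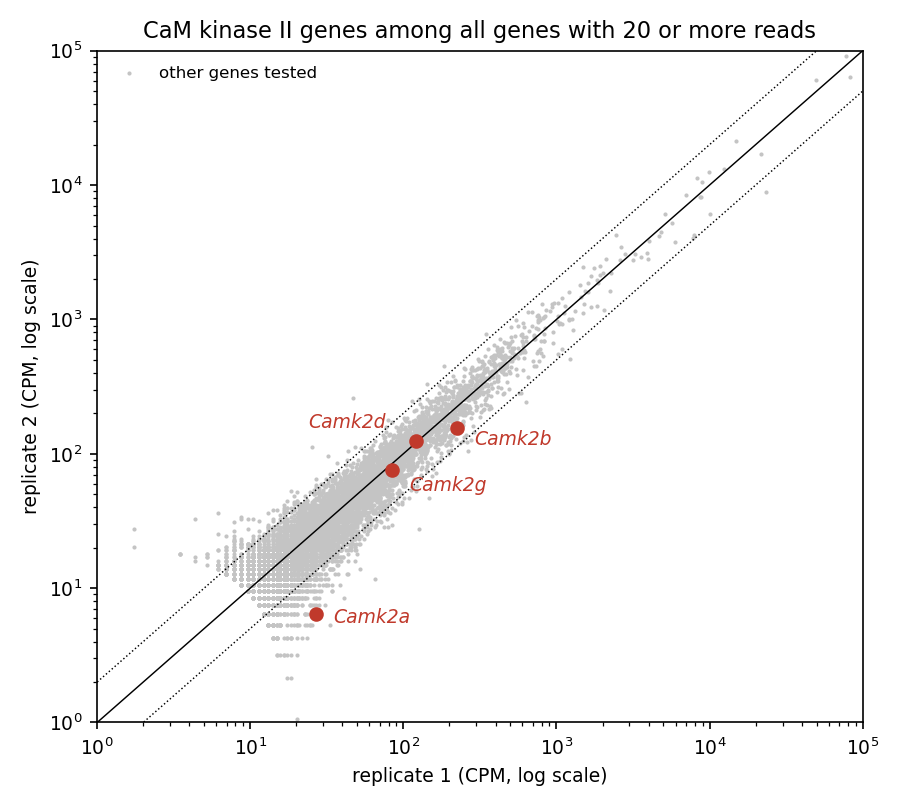
Level of every gene with 20 or more reads over both libraries and at least 1 read in each, replicate 1 on the horizontal and replicate 2 on the vertical log axis in CPM, with the line of equal levels and dotted lines at 2-fold. Camk2d and Camk2g lie near the line of equal levels, Camk2b lies below it but inside the 2-fold lines, and Camk2a lies outside them.

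The kinase and regulatory region had the same exon plan in all 4 genes and was almost never spliced differently. Its 11 internal exons had the same series of lengths in each gene, from 95 nt to a last exon of 43 nt, and the hub began with exons of 76 and 95 nt. Over these 11 exons (881 nt), aligned identity between the genes ranged from 77.0% (Camk2d with Camk2g) to 81.7% (Camk2a with Camk2b). With 81 to 172 spanning reads an exon, 0 and 1 Camk2b reads skipped any of the 11 in replicates 1 and 2. For Camk2d 0 and 0 reads did so over 105 to 126 spanning reads, and for Camk2g 2 and 0 reads did so over 65 to 88.

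No Camk2a read contained any of these 11 exons. Only 9 and 2 Camk2a reads held the hub exon of 76 nt in replicates 1 and 2. Within the gene, 0 of 9 and 0 of 2 allow up to 33.6% and 84.2% to reach the first kinase exon (Clopper-Pearson upper bounds). The full kinase transcripts of Camk2a, which encode 478 or 489 amino acids, had 0 reads in both libraries, and 0 of 342 and 0 of 254 family reads with the first kinase exon allows Camk2a a share of up to 0.877% and 1.18% by the limit of 3 reads (Clopper-Pearson upper bounds 1.07% and 1.44%). The annotated Camk2a reads, 9 in replicate 1 and 2 in replicate 2, were all given to Camk2a-204, the alpha-KAP transcript (chr18:60963554-60984863). It has 7 exons and 200 codons, begins with a first exon of 410 nt whose last 41 nt are a linker exon of the kinase transcripts, and joins the hub exons of 76 and 95 nt. Its start is that of the annotation and not of the reads, and a read of the kinase transcript with the exon of 33 nt that ended early in the 41 nt exon would have the same introns, so these cannot be told apart here. The other annotated short transcript, Camk2a-202, lacks the exon of 33 nt and had 0 reads. The genomic reads, 18 and 4, lay at the 3′ end of the gene and could not be assigned to the short or the full form. Camk2a-204 thus stood at 7.86 CPM in replicate 1 and 2.12 CPM in replicate 2, the latter under the limit that a count of 0 allows there.

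**Figure D3:**
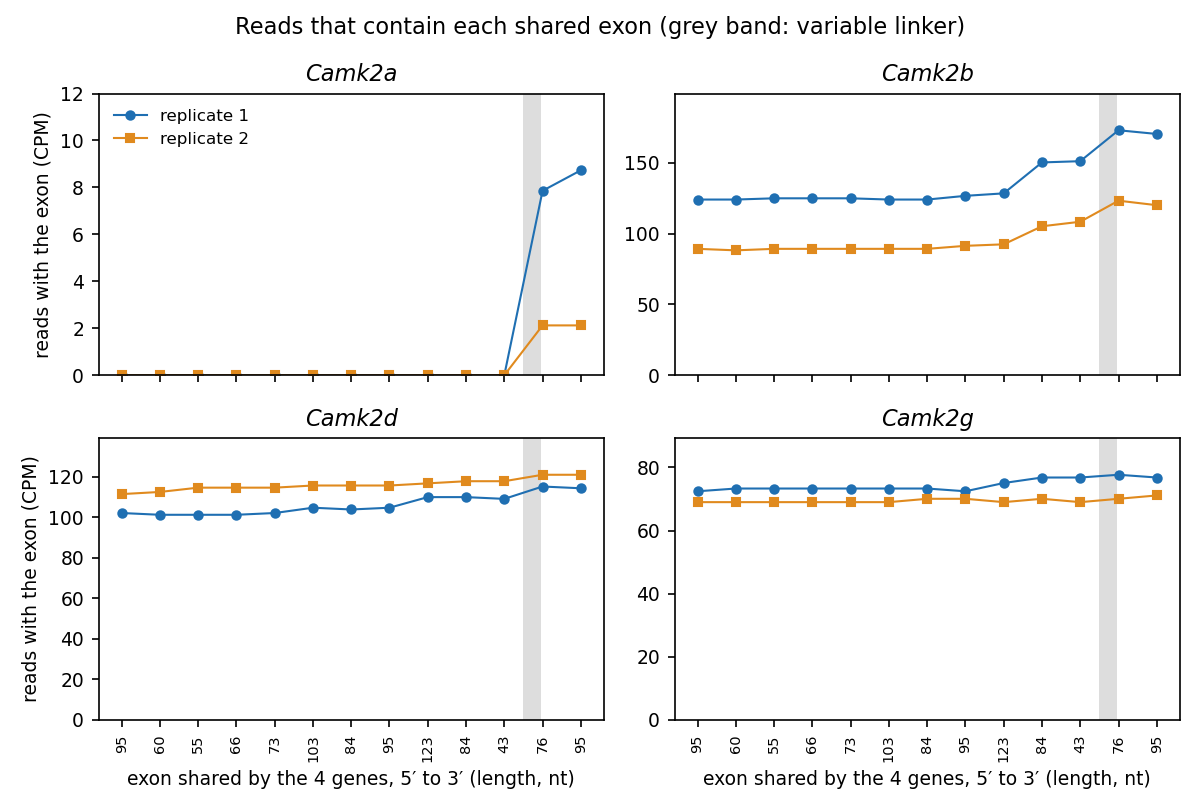
Reads that contain each of the 13 exons shared by the 4 genes, in CPM, for both libraries, with exons in order from 5′ to 3′ and named by their length. Camk2a has 0 reads on the 11 kinase and regulatory exons and up to 8.73 CPM on the hub exons, Camk2b declines towards the 5′ side, and Camk2d and Camk2g are nearly level.

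Reads of Camk2b, Camk2d and Camk2g that held the hub exon of 76 nt mostly continued to the first internal kinase exon. Of Camk2b reads, 71.7% (64.9 to 77.9) did so in replicate 1 and 72.4% (63.3 to 80.3) in replicate 2. The share was 86.4% (79.3 to 91.7) and 91.2% (84.5 to 95.7) for Camk2d, and 93.3% (85.9 to 97.5) and 98.5% (91.8 to 99.96) for Camk2g. The Camk2b intervals lay below those of Camk2d and Camk2g in both libraries. The largest inner start group of Camk2b began at the exon of 84 nt that precedes the exon of 43 nt, with 25 and 12 reads, of which 21 and 12 were of the incomplete class.

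A model was counted as short where it began after the start of the fourth exon of the longest coding transcript and had 3 or more exons. Short models held 55 of 198 and 31 of 116 spliced Camk2b reads, 18 of 136 and 8 of 116 Camk2d reads, and 5 of 89 and 2 of 67 Camk2g reads. Of these short reads, 48 and 29 of Camk2b, 15 and 4 of Camk2d and 4 and 2 of Camk2g were incomplete chains, whose inner start is also given by a read that ends early, so no promoter can be read from them. With incomplete and genomic models left out, 4.73% and 2.35% of Camk2b reads, 2.56% and 3.74% of Camk2d reads and 1.19% and 0% of Camk2g reads were short. In Camk2a, 10 of 10 and 2 of 2 spliced reads of 3 or more exons were short, 9 and 2 of them of the model Camk2a-204, whose reads carry no observed start.

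One short Camk2d chain was seen in both libraries outside the annotation. It began with a first exon that ended at position 126801511 of chromosome 3, between the exons of 43 and 38 nt, and had 2 reads in replicate 1 and 3 in replicate 2. The first exon was 178 nt long in one library and 158 nt in the other, and the chain went on through exons of 38, 60, 49, 76, 95, 229 and 89 nt to the last exon. It thus held the linker and the hub and none of the 11 kinase and regulatory exons. The annotated inner starts of Camk2d at Camk2d-214, Camk2d-217 and Camk2d-218, Camk2d-223 and Camk2d-224 had 0 to 2 reads in each library, mostly of the incomplete class, and that of Camk2g-206 had 1 and 0.

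Of the annotated exons of the family, 10 in the linker and 1 at the 3′ end of Camk2d were included in 5% to 95% of reads. Of the 30 internal exons of the family that could be tested, 0 were called between libraries (Fisher's exact test, adjusted p under 0.05 and 10 points). This compares with 0.0182% of all 10964 exons tested. Of the 30, 0 had an unadjusted p under 0.05 by the same test, which does not show equal inclusion. Apart from the variable exons, those tested stood under 5% or over 95% in both libraries. A difference of 10 points was out of reach for them, so the count rests on the variable exons. The largest difference among the 30 was 12.3 points. For comparison, 1706 exons of 985 genes over the whole table were included in 5% to 95% of reads, with a median difference of 4.94 points between libraries.

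**Figure D4:**
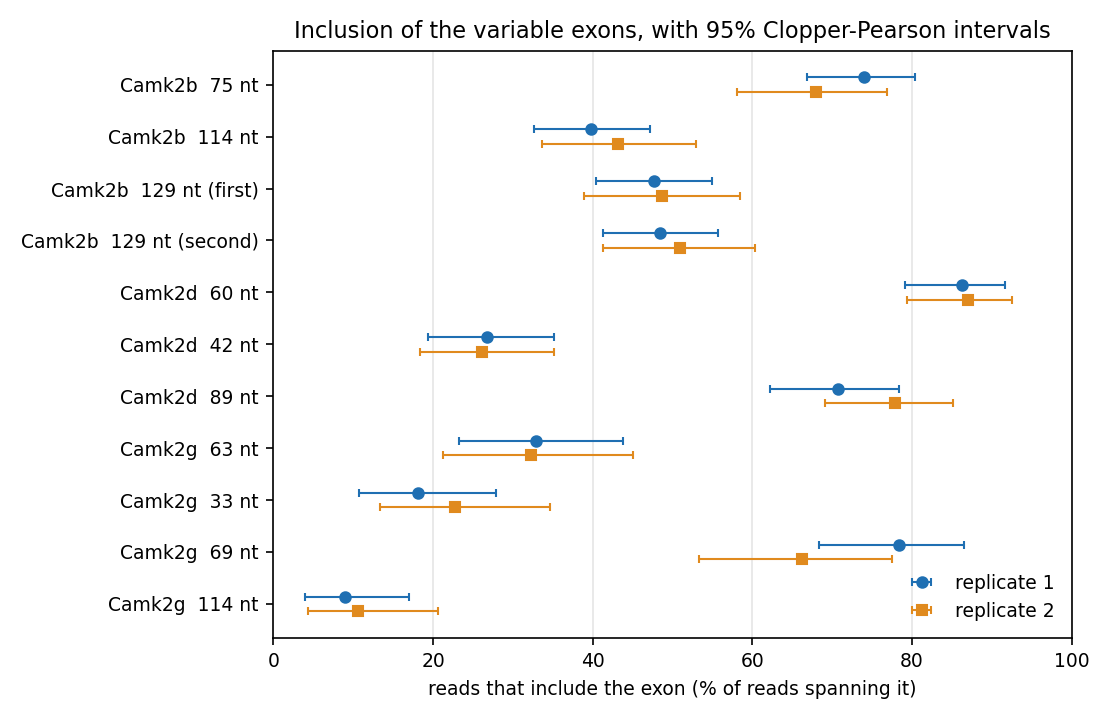
Share of spanning reads that include each variable exon, in percent, for replicate 1 (circles) and replicate 2 (squares), with Clopper-Pearson 95% intervals. The intervals of the 2 libraries overlap for all 11 exons, and inclusion ranges from 8.99% (Camk2g, 114 nt) to 87.0% (Camk2d, 60 nt).

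Nearly equal numbers of Camk2b reads carried and lacked the 2 exons of 129 nt of the proline-rich insert. Of spanning reads, 91 of 191 in replicate 1 (47.6%, 40.4 to 55.0) and 53 of 109 in replicate 2 (48.6%, 38.9 to 58.4) held the first exon of 129 nt. The second was included in 94 of 194 (48.5%, 41.2 to 55.7) and 58 of 114 (50.9%, 41.3 to 60.4). The exon of 114 nt was included in 74 of 186 (39.8%, 32.7 to 47.2) and 47 of 109 (43.1%, 33.7 to 53.0). Single reads that spanned the whole linker showed how these exons went together. All 81 and 49 reads with the second exon of 129 nt also held the first, which in 1 read of each library had another splice site and was 127 or 133 nt long. The first was present in 0 of 92 and 0 of 53 reads without the second. The exon of 114 nt was in 67 of 81 (82.7%) and 42 of 49 (85.7%) reads with the second exon of 129 nt, and in 0 of 92 and 0 of 53 reads without it. Here a version of 112 nt, in 2 reads of replicate 1 and 1 of replicate 2, was counted as absent.

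At the other end of the Camk2b linker, the exon of 75 nt (chr11:5987057-5987131) was included in 128 of 173 reads (74.0%, 66.8 to 80.4) in replicate 1 and 70 of 103 (68.0%, 58.0 to 76.8) in replicate 2. Its use went with the acceptor of the next exon, which is either 38 nt long or, with a splice site 3 nt upstream, 41 nt long. The longer exon was used in 1 of 127 and 1 of 70 reads with the exon of 75 nt, and in 42 of 45 and 32 of 32 reads without it. The second exon of 129 nt was in 50% (41.04 to 59.0) and 47.1% (35.1 to 59.4) of reads with the exon of 75 nt, and in 37.8% (23.8 to 53.5) and 50% (31.9 to 68.1) of reads without it. Those intervals overlapped in both libraries, which does not show equal shares, and the link was not tested.

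Camk2b reads used 20 different linkers, 7 of them in both libraries. Only 6 had 5 or more reads over both libraries. The most used joined exons of 75, 38, 72, 45 and 49 nt (93 codons), with 63 of 173 reads (36.4%) and 36 of 102 (35.3%). The same chain with the full proline-rich insert (217 codons) had 52 (30.1%) and 26 (25.5%) reads. The linker of 41, 72, 45 and 49 nt (69 codons) had 24 (13.9%) and 15 (14.7%) reads, and with the insert (193 codons) it had 11 (6.36%) and 14 (13.7%) reads and matched no annotated transcript. Linkers outside the annotation held 18.5% and 23.5% of spanning Camk2b reads. In 97.7% and 98.0% of spanning reads the linker length was a whole number of codons, and stop codons were not looked for. Of full-length models, Camk2b-209 had 44 and 27 reads and Camk2b-202 had 39 and 18.

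**Figure D5:**
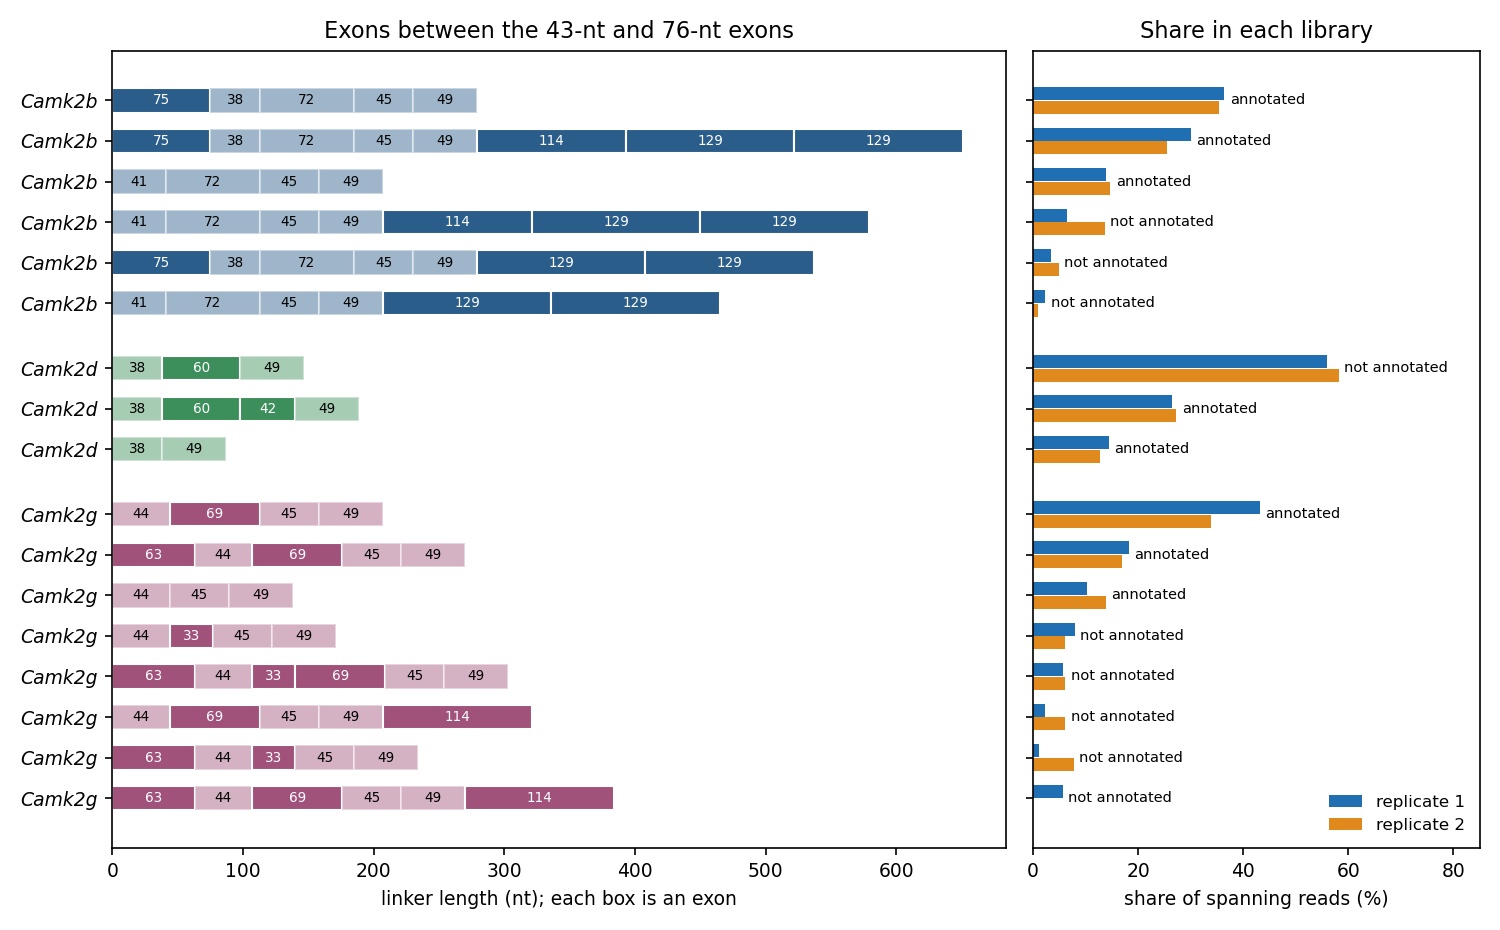
Linkers with 5 or more reads over both libraries, drawn to scale as boxes of exon length in nt between the exons of 43 and 76 nt, beside their share of spanning reads in each library. Pale boxes are exons present in nearly all reads of the gene or the acceptor variants of Camk2b, and the leading Camk2d linker, at 56.0% and 58.2%, is one that the annotation lacks.

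Camk2d reads were led by a linker that no M21 transcript spanning both anchors holds. It joined exons of 38, 60 and 49 nt (49 codons) and had 70 of 125 reads in replicate 1 (56.0%) and 64 of 110 in replicate 2 (58.2%, 48.4 to 67.5). The annotated linker that adds the exon of 42 nt (63 codons) had 33 (26.4%) and 30 (27.3%) reads, and the shortest common one, 38 and 49 nt (29 codons), had 18 (14.4%) and 14 (12.7%). The exon of 60 nt was thus included in 113 of 131 reads (86.3%, 79.2 to 91.6) and 100 of 115 (87.0%, 79.4 to 92.5). The exon of 42 nt was included in 35 of 131 (26.7%, 19.4 to 35.2) and 30 of 115 (26.1%, 18.3 to 35.1), and in 0 of 18 and 0 of 15 reads that lacked the exon of 60 nt. Over annotated models alone the exons of 60 and 42 nt would both stand at 65.7%, since the leading linker drops out. The exon of 33 nt with the nuclear signal of delta-B was in 0 of 131 and 0 of 115 spanning reads (Clopper-Pearson upper bounds 2.78% and 3.16%).

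At the 3′ end of Camk2d an exon of 89 nt (chr3:126841485-126841573) changes the C-terminus and adds 21 codons to the coding sequence. It was included in 92 of 130 reads (70.8%, 62.2 to 78.4) in replicate 1 and 88 of 113 (77.9%, 69.1 to 85.1) in replicate 2. Among reads with the exon of 60 nt it was present in 77 of 105 (73.3%, 63.8 to 81.5) and 78 of 93 (83.9%, 74.8 to 90.7), and among reads without it in 8 of 17 (47.1%, 23.0 to 72.2) and 6 of 15 (40.0%, 16.3 to 67.7). The intervals overlapped in replicate 1 and did not in replicate 2, and the link was not tested. The single most used Camk2d model had the 38, 60 and 49 nt linker and the exon of 89 nt, with 41 and 45 reads (29.5% and 38.1% of the gene). It was followed by Camk2d-228, which has the linker with the exon of 42 nt and the exon of 89 nt, with 16 and 22 reads.

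Camk2g reads used 13 different linkers, 9 of them in both libraries, which differed mainly by 4 variable exons. Of the 13, 8 had 5 or more reads over both libraries. The linker of 48, 63, 45 and 49 nt, with 0 and 1 reads, used splice sites outside the annotation. The exon of 69 nt was included in 69 of 88 reads (78.4%, 68.4 to 86.5) in replicate 1 and 43 of 65 (66.2%, 53.4 to 77.4) in replicate 2, the largest difference between libraries in the family, and not past the test (Fisher's exact test, adjusted p = 1). The exon of 63 nt (chr14:20757666-20757728) was in 29 of 88 (32.95%, 23.3 to 43.8) and 21 of 65 (32.3%, 21.2 to 45.1). The exon of 114 nt (chr14:20741378-20741491), at the place of the Camk2b insert, was in 8 of 89 (8.99%, 3.96 to 16.9) and 7 of 66 (10.6%, 4.37 to 20.6). It matched the Camk2b exon of 114 nt at 73 of 114 aligned positions and held 6 proline codons among 37.

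The basic exon of 33 nt, read in 0 Camk2d reads, was included in 16 of 88 Camk2g reads in replicate 1 (18.2%, 10.8 to 27.8) and 15 of 66 in replicate 2 (22.7%, 13.3 to 34.7). The exon of 69 nt was in 8 of 16 (50%, 24.7 to 75.3) and 5 of 15 (33.3%, 11.8 to 61.6) reads with the exon of 33 nt, and in 61 of 72 (84.7%, 74.3 to 92.1) and 37 of 50 (74.0%, 59.7 to 85.4) reads without it. The share was thus lower with the exon of 33 nt in both libraries. The intervals overlapped by a small margin in each, which does not show equal shares, and the link was not tested. The leading Camk2g linker, 44, 69, 45 and 49 nt (69 codons), had 38 of 88 reads (43.2%) and 22 of 65 (33.8%, 22.6 to 46.6), and with the exon of 63 nt before it 16 (18.2%) and 11 (16.9%). Linkers outside the annotation held 25% and 33.8% of spanning Camk2g reads.

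The use of whole models did not differ between libraries past the test either. Of the 31 member models tested, 0 were called (Fisher's exact test, adjusted p under 0.05 and 10 points), against 0.418% of the 14354 models tested, and 0 had an unadjusted p under 0.05. The smallest adjusted p was 0.720 and the largest difference 8.64 points. Most models rested on few reads: 36 of 61 Camk2b models, 30 of 46 Camk2d models, 16 of 29 Camk2g models and 2 of 5 Camk2a models had 1 read over both libraries.

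The genes around the kinase were read from lists drawn up with it. Of the genes that encode calmodulin, the activating calcium sensor, Calm2 had 285 and 418 CPM and Calm3 347 and 289 CPM. Neither was called. Both differences were under 2-fold, with an adjusted p by the exact binomial test of 1.55e-05 for Calm2 and 0.148 for Calm3. The related Calml4 had 4 and 1 reads, and Calml3 was at 0. The inhibitor Camk2n1 had 5 and 2 reads and Camk2n2 3 and 0, too few to test. Among 7 phosphatase genes, catalytic subunits that can remove phosphate from the kinase or from its substrates, 0 of 6 tested were called, against 2.75% of all tested genes. Ppp1ca stood highest at 443 and 471 CPM, then Ppp2ca at 283 and 375 CPM and Ppp1cb at 238 and 291 CPM.

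Of 18 genes of other kinases bound by calmodulin, or of their subunits, 1 of 9 tested was called, against 2.75% of all tested genes. This was Eef2k, the kinase of elongation factor 2, at 51.5 and 21.2 CPM (exact binomial test, adjusted p = 0.00738). The phosphorylase kinase genes stood highest, with Phkg1 at 137 and 123 CPM, Phkb at 133 and 127 CPM and Phka1 at 103 and 62.6 CPM. Phka1 had an adjusted p of 0.0258 by the exact binomial test, with a difference under 2-fold. Camk1 had 55.9 and 51.0 CPM, and Camk4 was at 0 in both. Of 13 splicing factors, 0 of 11 tested were called, beside the same 2.75%. Rbm24 stood highest at 291 and 308 CPM and Mbnl2 at 224 and 184 CPM, with Mbnl3 at 0.

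Of 19 substrates and partners in muscle, 5 of 16 tested were called, 4 lower and 1 higher in replicate 2, against 2.75% of all tested genes (1.92% lower and 0.838% higher). Their median log2 ratio was -0.39, beside -0.01 over all tested genes. The called genes were the histone deacetylase Hdac4 (48.0 and 15.9 CPM), titin Ttn (277 and 127 CPM), the calcium channel Cacna1s (636 and 241 CPM), the junction protein Jph2 (79.4 and 28.7 CPM) and the pump regulator Sln (27.1 and 58.4 CPM). The calcium pump Atp2a1 stood highest at 82292 and 63671 CPM, and the release channel Ryr1 had 356 and 298 CPM. Phospholamban (Pln), the substrate known from heart, had 0 and 1 reads. The parts of transcript length and of cell type makeup in these differences were not tested.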

How the data were processed

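Long-read RNA-seq of 2 gastrocnemius libraries was used. The values are counts: the authors deposited raw reads per transcript model, listing models with 1 or more read, on mm10 and GENCODE M21 per the deposited description files. The annotation files carry TALON attributes, and an annotated model has the ends of its annotation, not of its reads. Aligner and tool versions, not given in the sources used here, could differ between libraries. The labels cite different versions of the analysis pipeline document for the 2 libraries, so that version and animal cannot be told apart.

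Spike-ins were removed. Reads were summed per gene and scaled to CPM. For genes with a summed count of at least 20, the libraries were compared by the exact conditional binomial test (two-sided). Model shares (20 or more gene reads in each library, 5 or more model reads) and exon inclusion (20 or more spanning reads in each library) were tested by Fisher's exact test, two-sided, all with Benjamini-Hochberg adjustment over all features. Unannotated models were matched by intron chain. Exon inclusion is the share of reads that hold the exact exon internally, among those reads and the reads with an intron that covers it. Reads that begin or end in the exon, or use another of its splice sites, were left out. Starts within 100 nt were joined. The counts of 1 library a side allow no fit with replicate error.

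The naming rule took the 4 genes and their models with 5 or more reads or 10% of the gene. It also took internal exons with 10 or more spanning reads and annotated inner starts. List genes were taken at 10 CPM or more (up to 8 a list) or at 0. Not all models, exons and list genes that met the rule are named here. Calml4, Camk2n1, Camk2n2, Pln, Slc17a7 and the called list genes were named after their values were seen. The members and lists were chosen with earlier results of these data known. Exon sequences were taken from GENCODE M21 transcripts, and Camk2a exon sequence and protein sequences were not used here. Results on 1 list gene and the sequence of 1 exon are not reported here. Alternatives were TMM (edgeR 4.0.16) and DESeq2 1.42.0 scaling, other read minima, classes left out, start joining within 25 nt, any fold, and single libraries. Python 3.11.15, scipy 1.17.1 and R 4.3.3 were used.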

Additional observations from a re-analysis of the deposited data

How the results depend on the processing

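The Camk2a call held with scaling by TMM or DESeq2, with mitochondrial reads taken out of the library size, and at read minima of 5 and none. The members called were 0 at 100 or more reads, over annotated models alone and without the genomic class, where Camk2a was not tested, and 2 at any fold, where Camk2b was added. All genes called were 207, against 59 at 100 or more reads and 685 at any fold, and all models called were 60, against 29 without incomplete and genomic models and 159 at any difference. Members called in the model and exon tests were 0 under every alternative run. The Camk2d log2 ratio of 0.05 turned to -0.12 over annotated models alone (exact test, adjusted p = 0.929). By library, levels ranged from 6.37 to 27.1 CPM for Camk2a, 155 to 225 for Camk2b, 121 to 125 for Camk2d and 75.4 to 84.7 for Camk2g.

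The mean family share of Camk2b, 46.0%, was 37.1% without incomplete and genomic models, and that of Camk2d, 30.5%, was 37.0%. Camk2g, 19.6%, was 24.2% so counted and 25.2% over annotated models. Counted after the data were seen over reads with the first kinase exon, the shares were 0% for Camk2a, 37.3% for Camk2b, 37.8% for Camk2d and 24.9% for Camk2g, and over reads with the exon of 76 nt 21.5% for Camk2g. Short models of Camk2b, 27.3% of spliced reads, were 3.54% without incomplete and genomic models and 0% over annotated models, those of Camk2d, 10.1%, were 3.15% and 0%, and those of Camk2g, 4.30%, were 0.595% and 0%. Of 44 exon inclusion values under alternatives 12 moved by more than 1 SD, all of them where classes of models were left out. The 44 include single-library values, which with 2 libraries cannot lie more than 1 SD from their mean, so 12 of 44 understates the dependence. Of the 12, 9 moved over annotated models alone. There the Camk2b exon of 75 nt stood at 97.7% and the Camk2g exons of 63 and 114 nt at 0%.

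No paired analysis was possible because the series has 1 group and the 2 replicate numbers pair no samples across groups. At 6 to 258 reads a gene and library, depth limits the rare forms, and the causes of the shifts above were not tested beyond the reads that each alternative leaves out.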
